A study of Mus musculus with 4 samples.

Results

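To ask whether Pax7 itself binds near genes that the PAX-FOXO1 fusion activates in rhabdomyosarcoma, Pax7 ChIP-seq peaks were collected around Fgfr4, Alk, Mycn and Cnr1, and around Foxo1, the mouse counterpart of the fusion partner. A peak was taken when its summit lay between 100 kb before the start and 100 kb after the end of the gene in the GENCODE annotation of NCBIM37 (mm9). The 5 windows held 26 of the 20579 peaks in the list. The cells were iPax7 muscle progenitors, derived from mouse ES cells that carry 1 inducible Pax7 cDNA beside Hprt. They received 1 µg/ml doxycycline (Dox) from day 3 of serum differentiation, were sorted as PDGFRα+FLK1- on day 5 and were harvested on day 9, after 6 days of Dox. All 4 libraries came from this state, 2 Pax7 ChIP and 2 input. Cells without induction, cells with the fusion protein and expression were not analysed here, and the cells descend from 1 engineered ES cell line. A peak list does not allow the labelled cell type to be checked against its marker genes. The peaks were called on merged replicates, so no peak has a replicate error and no value below is a test between samples. The list holds no read counts, and the depth behind a single peak is unknown. Each peak has a fold enrichment of merged ChIP over local background at its summit and a −log10 q, where q is the p-value of the peak corrected for multiple testing. TSS stands for the annotated transcription start site.

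Pax7 and its paralog Pax3 are transcription factors of muscle progenitors that contact DNA with a paired domain and a homeodomain. In alveolar rhabdomyosarcoma, a childhood tumour with features of muscle progenitors, a translocation joins the DNA-binding part of PAX3 or PAX7 to the transactivation domain of FOXO1. FGFR4 and ALK, both receptor tyrosine kinases, the cannabinoid receptor CNR1 and the transcription factor MYCN are known as targets of that fusion. Foxo1 is included as the partner gene and not as a target. The full paired-domain sequence contains the core GTCACG, and the homeodomain recognises ATTA.

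The summit sequences on which the results turn are shown as 101 bases of the plus strand of mm9, centred on the summit. In the first 4 the capitals mark the paired-box core GTCACG or, where it lies on the minus strand, its reverse complement CGTGAC. These are all the peaks of the 5 windows with that core within 50 bp of the summit.
Fgfr4 peak 4 (chr13:55291101-55291201): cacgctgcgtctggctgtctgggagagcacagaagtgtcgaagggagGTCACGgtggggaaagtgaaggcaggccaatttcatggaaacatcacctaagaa
Cnr1 peak 1 (chr4:33911816-33911916): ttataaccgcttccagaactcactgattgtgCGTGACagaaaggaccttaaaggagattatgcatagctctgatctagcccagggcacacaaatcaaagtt
Cnr1 peak 2 (chr4:33930158-33930258): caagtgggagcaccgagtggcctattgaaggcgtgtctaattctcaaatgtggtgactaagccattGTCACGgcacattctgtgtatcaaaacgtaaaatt
Cnr1 peak 6 (chr4:34011211-34011311): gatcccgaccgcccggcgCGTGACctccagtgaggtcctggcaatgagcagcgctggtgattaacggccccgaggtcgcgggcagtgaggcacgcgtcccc

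The next pair is shown because both peaks, 5.55 kb apart downstream of Fgfr4, contain the same run of 11 bases, marked in capitals.
Fgfr4 peak 1 (chr13:55270457-55270557): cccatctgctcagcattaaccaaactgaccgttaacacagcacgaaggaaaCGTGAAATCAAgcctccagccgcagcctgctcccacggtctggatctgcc
Fgfr4 peak 3 (chr13:55276009-55276109): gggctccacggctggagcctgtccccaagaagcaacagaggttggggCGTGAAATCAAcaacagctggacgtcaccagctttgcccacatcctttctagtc

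The strongest peaks of the remaining windows had no paired-box core within 50 bp of the summit and are given without capitals. The last line is a stronger peak just beyond the Mycn window, with its core in capitals.
Alk peak 3 (chr17:72293454-72293554): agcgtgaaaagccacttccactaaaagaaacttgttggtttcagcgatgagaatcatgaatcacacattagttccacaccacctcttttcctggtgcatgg
Mycn peak 5 (chr12:12888066-12888166): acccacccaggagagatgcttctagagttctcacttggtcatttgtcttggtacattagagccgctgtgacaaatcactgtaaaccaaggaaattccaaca
Foxo1 peak 4 (chr3:52225082-52225182): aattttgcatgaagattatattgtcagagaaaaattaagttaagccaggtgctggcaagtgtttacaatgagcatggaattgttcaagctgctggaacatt
Peak upstream of the Mycn window (chr12:13063215-13063315): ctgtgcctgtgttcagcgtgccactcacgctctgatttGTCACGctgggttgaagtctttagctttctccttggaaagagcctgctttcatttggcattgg

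The number of peaks differed widely between the 5 genes. Cnr1 had 10, Mycn 5, Fgfr4 and Foxo1 4 each and Alk 3. At least 1 Pax7 peak was found under the same rule for 75.2% of the 22350 protein-coding genes, with a median of 2 per window, so the presence of a peak does not set these genes apart. At least 3 peaks, as at Alk, were found for 43.1% of protein-coding genes, at least 4 for 29.8% and at least 5 for 19.4%. At least 10, as at Cnr1, were found for 2.03%. With peaks within 500 bp merged, Cnr1 had 9. Windows differ in length, since the gene itself is included. Per 100 kb of window, Cnr1 had 4.46 peaks, Mycn 2.43, Fgfr4 1.85, Foxo1 1.42 and Alk 0.321, against a median of 0.916 over protein-coding genes. A density as high as that of Cnr1 was reached by 0.770% of protein-coding genes, and one as high as that of Alk by 74.2%.

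**Figure D1:**
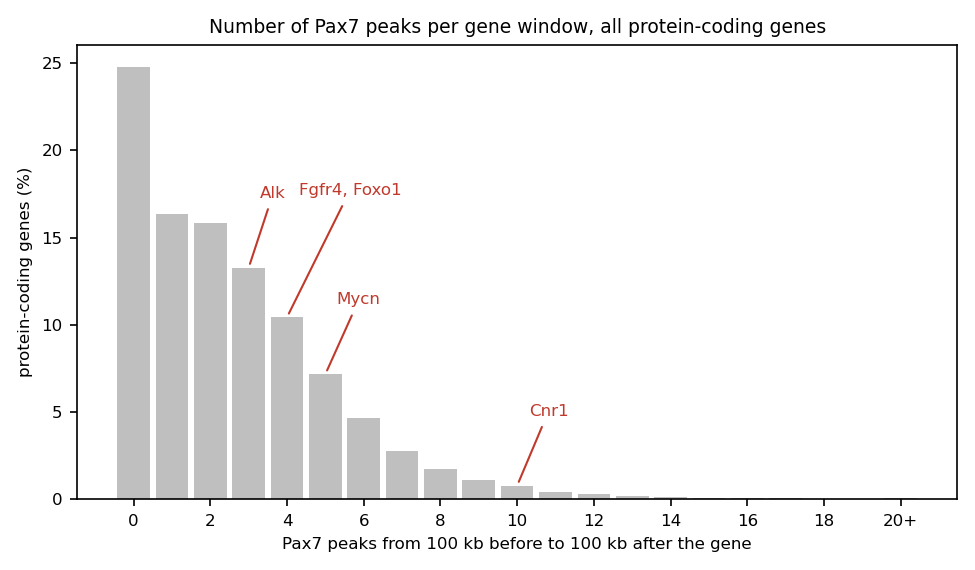
Bars give the percentage of 22350 protein-coding genes (vertical axis) with each number of Pax7 peaks between 100 kb before and 100 kb after the gene (horizontal axis, with 20 or more in the last bar). Alk, Fgfr4, Foxo1 and Mycn stand at 3 to 5 peaks in the body of the distribution, and Cnr1 at 10 peaks in its tail.

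Fgfr4 encodes a receptor of fibroblast growth factors that is expressed in muscle progenitors. It occupies bases 55254001 to 55270120 of chromosome 13 on the plus strand. All 4 of its peaks lay downstream of the end of the gene, and none was upstream or inside it. The strongest of all 26 peaks was Fgfr4 peak 1, from 55270356 to 55270830, with 12.3-fold enrichment over the local background (−log10 q of 50.7). Its summit was 16.5 kb from the TSS and 387 bp past the annotated end of Fgfr4. Fgfr4 peak 2, from 55272825 to 55273632, reached 7.91-fold enrichment (−log10 q of 33.03). At 808 bp it was the widest of the 26, whose median width was 273.5 bp. Fgfr4 peak 3, from 55275858 to 55276253, reached 6.81-fold enrichment (−log10 q of 31.4). Fgfr4 peak 4, from 55290990 to 55291317, lay 21031 bp past the end of the gene, with 8.51-fold enrichment (−log10 q of 37.8).

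The Fgfr4 peaks were therefore both strong and close together. Each exceeded at least 75.8% of all Pax7 peaks in fold enrichment, and the first exceeded 97.0%. A strongest peak as high as this was found in the windows of 6.82% of protein-coding genes. Their summits fell within 20.6 kb. Of the 20519 runs of 4 neighbouring summits in the list, 396 (1.93%) were as tight, and 1201 peaks (5.84% of the list) lay in such a run. Both the run length and the span of this unplanned comparison were taken from the Fgfr4 peaks themselves. The group was also isolated, since the next peak was 344 kb upstream of the TSS on one side and 177 kb past the end of the gene on the other. Both of these were weak, with fold enrichments of 3.96 and 4.20. All 4 peaks were intergenic, yet each also fell within 100 kb of Uimc1, Zfp346, Gm17617 and Nsd1. The first 3 were nearest to annotated starts of Fgfr4 transcripts. Peak 4 was nearer to the TSS of Nsd1, a histone methyltransferase gene, at 19992 bp. The nearest annotated start of an Fgfr4 transcript was 21983 bp away, and the 5′-most Fgfr4 TSS 37150 bp away. Which gene any of them acts on was not tested.

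In sequence, the paired-box core was present at 1 of the 4 Fgfr4 summits. In Fgfr4 peak 4 its centre was 0.5 bp from the summit, the closest of all the cores found. Fgfr4 peaks 1 and 3 lacked it, but shared the run CGTGAAATCAA in the same orientation, which was noticed after the sequences had been compared. It occurred within 50 bp of the summit in 9 of the 20579 peaks. This is a description only. Among the 325 pairs of the 26 summit windows, 4 pairs shared a run of 11 bases and 1 pair, Cnr1 peaks 9 and 10, shared 12.

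Alk encodes a receptor tyrosine kinase expressed mainly in the developing nervous system. It occupies bases 72218782 to 72953049 of chromosome 17 on the minus strand and spans 734 kb. Its 3 peaks were all in introns, far from the TSS. Alk peak 1, from 72682306 to 72682498, was 271 kb downstream of the TSS with 4.71-fold enrichment (−log10 q of 7.67). Alk peak 2, from 72554608 to 72554827, was 398 kb downstream with 5.40-fold enrichment (−log10 q of 12.2). Alk peak 3, from 72293405 to 72293669, was 660 kb downstream with 6.10-fold enrichment (−log10 q of 13.9), and was nearer to the TSS of Clip4. The strongest Alk peak was thus weaker than the strongest peak of each of the other 4 genes. No Pax7 peak lay within 100 kb of the Alk TSS on either side, and the nearest one upstream was 233 kb away, at the TSS of Ypel5. The Alk count rests entirely on the length of the gene.

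Cnr1 encodes the cannabinoid receptor of type 1, a G protein-coupled receptor best known from neurons. It occupies bases 34011568 to 34035806 of chromosome 4 on the plus strand. Its 10 peaks spanned 151 kb, with 6 upstream of the gene, 2 inside it and 2 beyond its end. A pair stood directly upstream of the TSS. Cnr1 peak 6, from 34011142 to 34011415, had its summit 307 bp upstream with 8.19-fold enrichment (−log10 q of 24.8). Cnr1 peak 5, from 34010706 to 34010974, was 723 bp upstream with 5.40-fold enrichment (−log10 q of 11.8). A Pax7 peak within 1 kb of an annotated TSS of its own was found for 14.1% of protein-coding genes, and among the 5 genes for Cnr1 and Mycn. The GC share of the promoter pair was 70.3% in the summit window of peak 6 and 60.4% in that of peak 5. The median was 45.5% over all peaks, of which 16.3% lay within 1 kb of an annotated TSS. No value for that class alone is given, so high GC is not shown to be particular to Cnr1.

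The highest fold enrichment near Cnr1 was far upstream. Cnr1 peak 2, from 33930058 to 33930524, was 81.4 kb upstream of the TSS with 8.66-fold enrichment (−log10 q of 28.3), above 88.2% of all peaks. Cnr1 peak 1, from 33911768 to 33911958, was just inside the window at 99.7 kb, with 5.60-fold enrichment. Cnr1 peak 3 (33965581 to 33965827) was 45.8 kb upstream with 5.56-fold enrichment, and Cnr1 peak 4 (34003885 to 34004258) was 7.62 kb upstream with 4.36-fold. These 4 were all intergenic. Within the gene, Cnr1 peak 7 (34018834 to 34019132) lay in an intron and was the weakest of the 26, with 3.31-fold enrichment (−log10 q of 5.24). Cnr1 peak 8 (34032829 to 34033039) lay in the 3′ untranslated part of the last exon, with 4.82-fold. Cnr1 peaks 9 (34057112 to 34057384) and 10 (34062615 to 34062818) were 21.5 and 26.9 kb past the end of the gene, with 5.25-fold and 4.71-fold enrichment.

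Cnr1 thus combined many peaks with mostly moderate values. Its median fold enrichment was 5.33, close to the 5.22 of the whole list, and 6 of its 10 peaks reached 5-fold. For each of the 10 the nearest protein-coding TSS was that of Cnr1. Only peaks 7 to 10 also fell into the window of another protein-coding gene, Spaca1. The paired-box core was present at 3 of the 10 summits, in peaks 1, 2 and 6, with its centre 16.5, 18.5 and 29.5 bp from the summit. Peaks 2 and 6, which carry it, were the strongest of the window.

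Mycn encodes a transcription factor of the Myc family that drives proliferation of progenitor cells. It occupies bases 12942902 to 12948720 of chromosome 12 on the minus strand. Of its 5 peaks, 2 were upstream, 2 were within the gene and 1 was beyond its end. Mycn peak 5, from 12887999 to 12888268, was the strongest, with 9.43-fold enrichment (−log10 q of 32.04), above 91.2% of all peaks. It was intergenic, 60.6 kb downstream of the Mycn TSS, and lay nearer to the TSS of the annotated protein-coding gene Rpl36-ps3, at 30676 bp. Mycn peak 2, from 12985231 to 12985514, was 36.7 kb upstream with 8.01-fold enrichment (−log10 q of 24.9). Mycn peak 1, from 12993902 to 12994110, was 45.3 kb upstream and weak, with 3.48-fold enrichment (−log10 q of 5.27).

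Within Mycn, peak 3 (12947862 to 12948063) lay 792 bp downstream of the TSS, in an intron of the coding transcripts that is an exon of a noncoding Mycn transcript. It had 4.71-fold enrichment. Mycn peak 4 (12945107 to 12945401) lay in an intron 3.47 kb downstream, with 6.57-fold enrichment (−log10 q of 16.8). None of the 5 held the paired-box core within 50 bp of the summit. The value of peak 3 was identical, in fold enrichment and in −log10 q, to those of Alk peak 1 and Cnr1 peak 10. The same pair of values was held by 261 peaks of the list.

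Foxo1 encodes a forkhead transcription factor that acts downstream of insulin and Akt signalling. It occupies bases 52072259 to 52154031 of chromosome 3 on the plus strand, and no other protein-coding gene overlapped its window. Of its 4 peaks, 1 was inside the gene and 3 were beyond its end. Foxo1 peak 1, from 52073855 to 52074298, lay in an intron 1.73 kb downstream of the TSS, with 6.24-fold enrichment (−log10 q of 15.9). It was also 631 bp from the start of a noncoding transcript on the opposite strand, RP24-337A16.1. Foxo1 peak 2 (52154501 to 52154726) was 558 bp past the end of the gene, with 4.33-fold enrichment (−log10 q of 6.92). Foxo1 peak 3 (52195139 to 52195542) was 41.3 kb past the end, with 5.28-fold enrichment. Its −log10 q was 26.1, higher than those of the 5.40-fold peaks at Alk and Cnr1. Foxo1 peak 4 (52224982 to 52225288) was the strongest and the farthest, 71.1 kb past the end, with 9.07-fold enrichment (−log10 q of 32.2). Pax7 peaks thus lay in an intron near the start of the partner gene and in intergenic sequence past its end. None of the 4 summits had the paired-box core. Which gene these peaks act on was not tested.

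**Figure D2:**
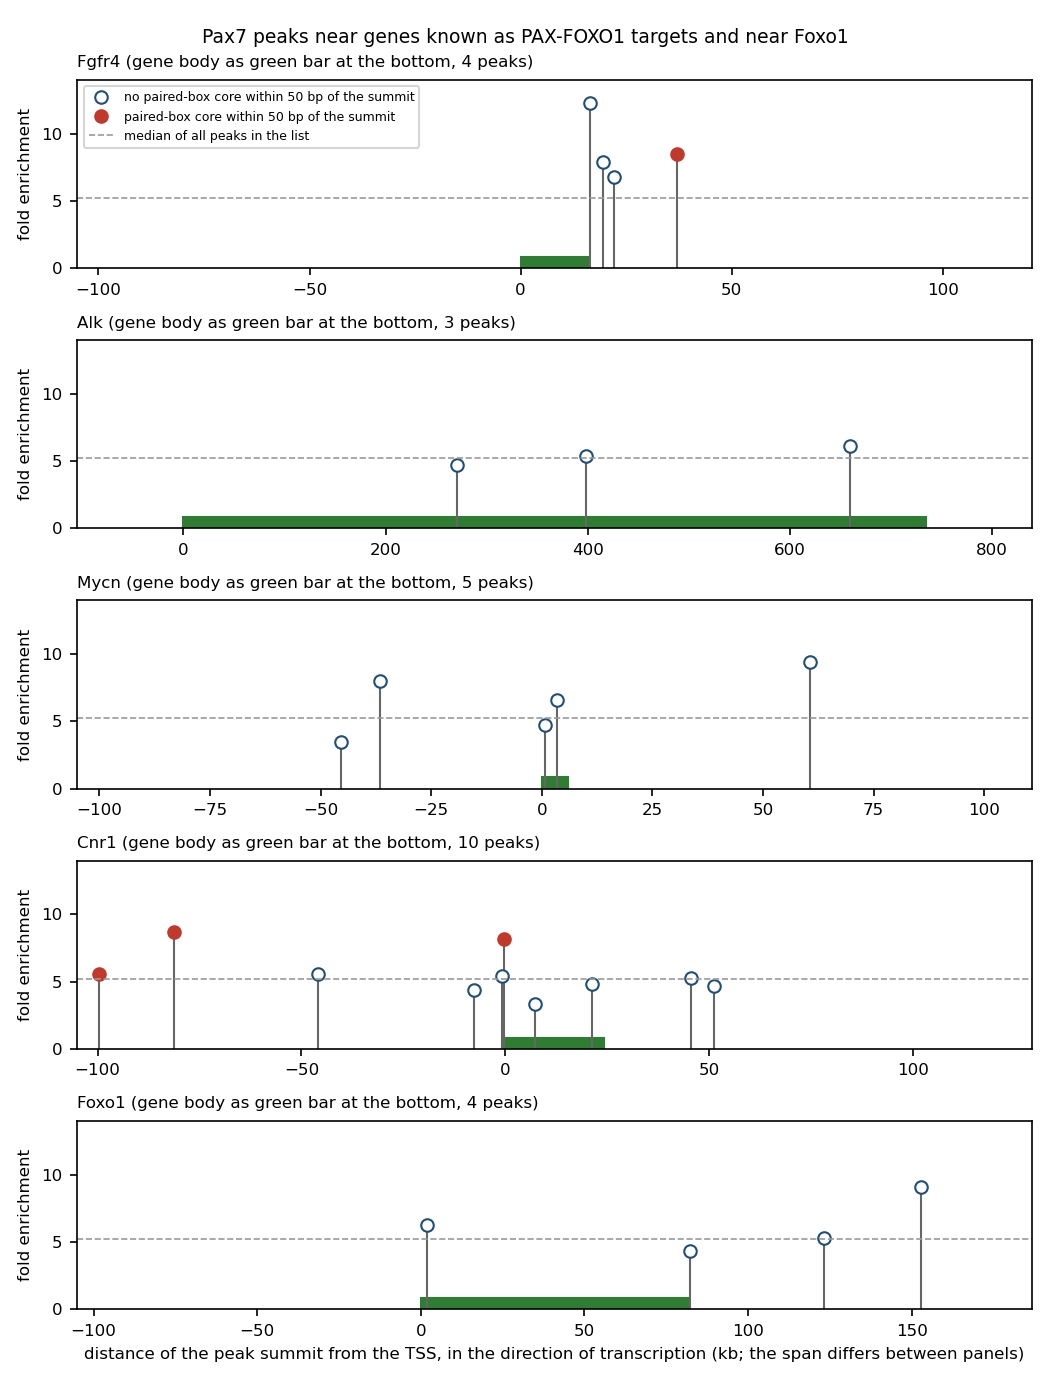
Each stem is a Pax7 peak, placed by the distance of its summit from the TSS in the direction of transcription (horizontal axis, kb, with a different span in each panel) and raised to its fold enrichment (vertical axis). Green bars are gene bodies, filled red points hold the paired-box core within 50 bp of the summit, and the dashed line is the median of all peaks. The Fgfr4 peaks crowd just past the end of the gene, the Alk peaks are scattered within it, and the Cnr1 peaks lie on both sides of the TSS.

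Over the 26 peaks, the lowest fold enrichment was 3.31, the median 5.58 and the highest 12.3, against a median of 5.22 over all peaks. At least 5-fold enrichment was reached by 18 of the 26 (69.2%), against 54.9% of the list. The medians by gene were 8.21 for Fgfr4, 6.57 for Mycn, 5.76 for Foxo1, 5.40 for Alk and 5.33 for Cnr1. Apart from Fgfr4, each gene had peaks below the median of the whole list. Peaks of 1 window share a locus and are not replicates, so these medians were not tested against each other.

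**Figure D3:**
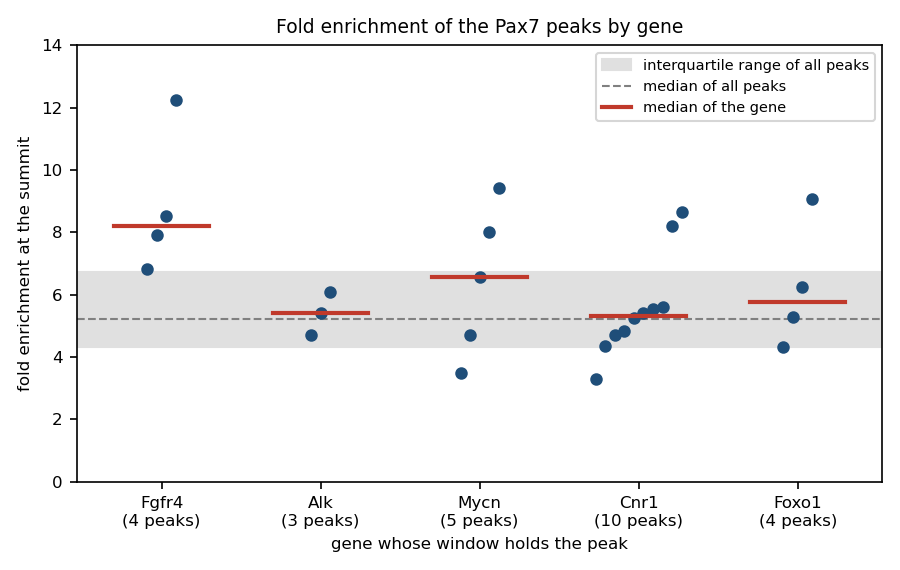
Points are the fold enrichments at the summit (vertical axis) of the 26 Pax7 peaks, grouped by gene (horizontal axis), with red bars for the median of each gene. The grey band is the interquartile range of all peaks, from 4.32 to 6.74, and the dashed line their median of 5.22. All 4 Fgfr4 peaks lie above the band, whereas the Alk peaks lie within it.

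The peaks lay mostly between genes. Of the 26, 16 (61.5%) were intergenic, 5 (19.2%) were in introns, 1 was in an exon and 4 (15.4%) were within 1 kb of an annotated TSS, which for Foxo1 peak 1 was that of the opposite noncoding transcript. Over all peaks these classes made up 39.0%, 42.1%, 2.55% and 16.3%. The rule itself shapes this mix, since except at Alk the windows are mostly flanking sequence. Mycn covers 5.82 kb of its 206 kb window, Fgfr4 16.1 of 216, Cnr1 24.2 of 224 and Foxo1 81.8 of 282. The shares of the 26 and of the list are therefore not directly comparable. The nearest protein-coding TSS was that of the gene in question for 23 of the 26. The exceptions were Fgfr4 peak 4, Alk peak 3 and Mycn peak 5, each the strongest or the second strongest of its gene. In addition, 14 of the 26 peaks also fell into the window of at least 1 other protein-coding gene. Both counts depend on the rule, which takes peaks close to these genes, and on how the genes are spaced. The Foxo1 window overlaps 0 other protein-coding genes, and those of Alk, Mycn and Cnr1 overlap 1 each. The counts have no share over all windows beside them and are a description only.

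Either strand was searched for recognition sequences, up to 50 bp from the summits. The paired-box core GTCACG was found in 4 of the 26 peaks (15.4%), against 11.1% of all peaks and 1.31% of windows of the same length 500 bp to the right of the summits. The joined paired and homeodomain sequence ATTAGTCAC was found in 0 of the 26, against 1.18% of all peaks. The homeodomain dimer sequence, TAAT and ATTA separated by 2 bases, was found in 0, against 0.831%. The E-box CANNTG, bound by bHLH factors such as MyoD, was found in 12 of the 26 (46.2%), against 49.7%. Its form CAGCTG, which is counted under CANNTG as well, was found in 2, against 15.7%. The control GCACTG was found in 0, against 6.86%. The shorter GTCAC and ATTA were added after the sequences had been seen. They were found in 10 and 17 of the 26, against 31.9% and 64.7% of all peaks. At 26 peaks these shares are coarse, and the share with the core is near that of the list.

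The cut at 100 kb left out further peaks on either side of the windows. Just beyond the Mycn window, a peak from 13063086 to 13063621 stood 115 kb upstream of the TSS with 20.1-fold enrichment (−log10 q of 108). It ranked 39 among all peaks, exceeded 99.8% of them and held the paired-box core 9.5 bp from its summit. It was intergenic, and its nearest protein-coding TSS was that of Mycn. On the other side, the next peak was 144 kb past the end of Mycn, with 11.5-fold enrichment, and was nearer to Rpl36-ps3. The next peaks beyond the Foxo1 window were 104 kb upstream (7.25-fold, nearer to Maml3) and 110 kb past the end (8.10-fold, nearer to Gm10293). Those beyond the Cnr1 window were 129 kb upstream (6.98-fold) and 132 kb past the end (3.49-fold, nearer to Spaca1). Past the end of Alk the next peak was 656 kb away (7.56-fold, nearer to Lpin2).

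Windows of 200 kb on either side separated the 5 genes further, in an extension made after their values were known. Mycn went from 5 peaks to 12, a number reached by 5.35% of protein-coding genes at that distance, and 6 of its 7 additional peaks had at least 5-fold enrichment. Cnr1 went from 10 to 16, reached by 0.98% of protein-coding genes, with additional peaks of at most 6.98-fold. Foxo1 went from 4 to 11, reached by 7.5%, with 3 of 7 additional peaks at 5-fold or more. Fgfr4 gained 1 peak, of 4.20-fold, and Alk gained 0, and as many peaks as theirs were found for 46.6% and 67% of protein-coding genes. Fgfr4 and Cnr1 thus lay apart in this respect, with a compact group of strong peaks at the former and a long stretch of mostly moderate ones at the latter.

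The same rule was applied to paralogues of the 5 genes. Of 10 paralogues, 8 had at least 1 peak, with a median of 2 peaks, equal to that of all protein-coding genes. Among the receptors of fibroblast growth factors, Fgfr1 had 3 peaks of at most 5.92-fold and Fgfr3 had 2 of at most 9.12-fold. Fgfr2 had 43 because 1 of its annotated transcripts spans 3009 kb. Its other 28 transcripts gave 7 peaks of at most 9.84-fold. Myc had 2 peaks of at most 6.06-fold and Mycl1 had none, against 5 at Mycn. Cnr2, the second cannabinoid receptor gene, had 4 of at most 7.32-fold, against 10 at Cnr1. Ltk, the closest relative of Alk, had none. Foxo3 had 4 peaks, Foxo4 2 and Foxo6 1. The highest of these, 10.5-fold in the Foxo4 window, exceeded the 9.07-fold of Foxo1. It lay 98.3 kb from the Foxo4 TSS and was nearer to the TSS of Snx12. The strongest peaks of the Fgfr1, Fgfr3, Cnr2 and Foxo3 windows were likewise nearer to another gene, namely Letm2, Whsc1, Srsf10 and Lace1. For Myc, Foxo6 and the whole Fgfr2 annotation, the strongest peak was nearest to the gene itself. A peak within 1 kb of a TSS of their own was found for 0 of the 10 paralogues and for 2 of the 5 genes, against 14.1% of protein-coding genes. It was found for 5 of the 19 other targets and 2 of the 12 partners listed below. Counts this small were not tested.

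Further genes described as targets of PAX3-FOXO1 in the tumour were listed, and 19 of 20 were found in the annotation used. The list was chosen with earlier results of these data known, so its contrasts with protein-coding genes are a description only. All 19 had at least 1 Pax7 peak, against 75.2% of protein-coding genes. Their median was 4, the same as for the 5 genes, against 2 over protein-coding genes. Per 100 kb of window, the medians were 1.53 for these 19, 1.85 for the 5 genes and 0.916 over protein-coding genes. The strongest peak was at Pipox, which encodes a peroxisomal oxidase of sarcosine and pipecolic acid. It was the only peak of that window, at 77698652 to 77699066 on chromosome 11, with 21.9-fold enrichment (−log10 q of 127), above 99.9% of all peaks. Skp2, a ubiquitin ligase component that targets cell-cycle inhibitors, followed with 15.6-fold among 6 peaks. Dcx, a microtubule-associated protein of migrating neurons, had 13.6-fold among 6, and Met, the receptor of hepatocyte growth factor, had 13.4-fold among 7. The most peaks, 14, were at Igf1r, the receptor of insulin-like growth factors, with at most 7.56-fold. At the other end, Foxf1a, Olig2 and Cdh3 had 1 peak each, and Cxcr4 had 3 of at most 4.33-fold. In the Myog, Cdh3, Nhlh1, Olig2, Nell1, Abat and Podxl2 windows, the strongest peak was nearer to the TSS of another gene. For the rest of the list it was nearest to the gene itself. The only peaks of Cdh3 and Olig2 were 112 kb and 66.6 kb from the TSS of these genes. Fgfr4 was exceeded in its strongest peak by 5 of the 19, namely Pipox, Skp2, Dcx, Met and Myod1.

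Of 12 genes for ligands and partners of the 5 proteins, all had at least 1 peak, against 75.2% of protein-coding genes. The median was 4 peaks against 2, or 1.56 per 100 kb of window against 0.916. Fgf8, a growth factor of the early embryo, had the strongest, 13.2-fold at 45812074 to 45812474 on chromosome 19, 5.13 kb from its TSS and with the paired-box core. Klb, the co-receptor of FGFR4, had 7 peaks of at most 9.59-fold, and Fgf15, a ligand of Fgfr4, had 2 of at most 4.88-fold. The Alk ligand genes Mdk and Ptn had 4 and 2 peaks, of at most 9.60-fold and 5.23-fold. Of the genes that make or degrade endocannabinoids, Dagla had 6 peaks of at most 10.9-fold, while Faah and Mgll had 4 each. Aurka, whose kinase stabilises MYCN, had 7 and Max, the dimer partner of Myc proteins, had 3. Akt1 and Sirt1, whose products modify Foxo1, had 2 and 4. In the Fgf15, Klb, Mdk, Aurka, Dagla, Faah, Mgll and Akt1 windows, the strongest peak was nearer to the TSS of another gene. Only for Fgf8, Ptn, Max and Sirt1 was it nearest to the gene itself. The windows of Mgll and of the target Podxl2 overlap, and the strongest Mgll peak lies in both. The list of ligands and partners was likewise chosen with earlier results known, and its contrasts with protein-coding genes are a description only. The lists were compared by these values only.

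**Figure D4:**
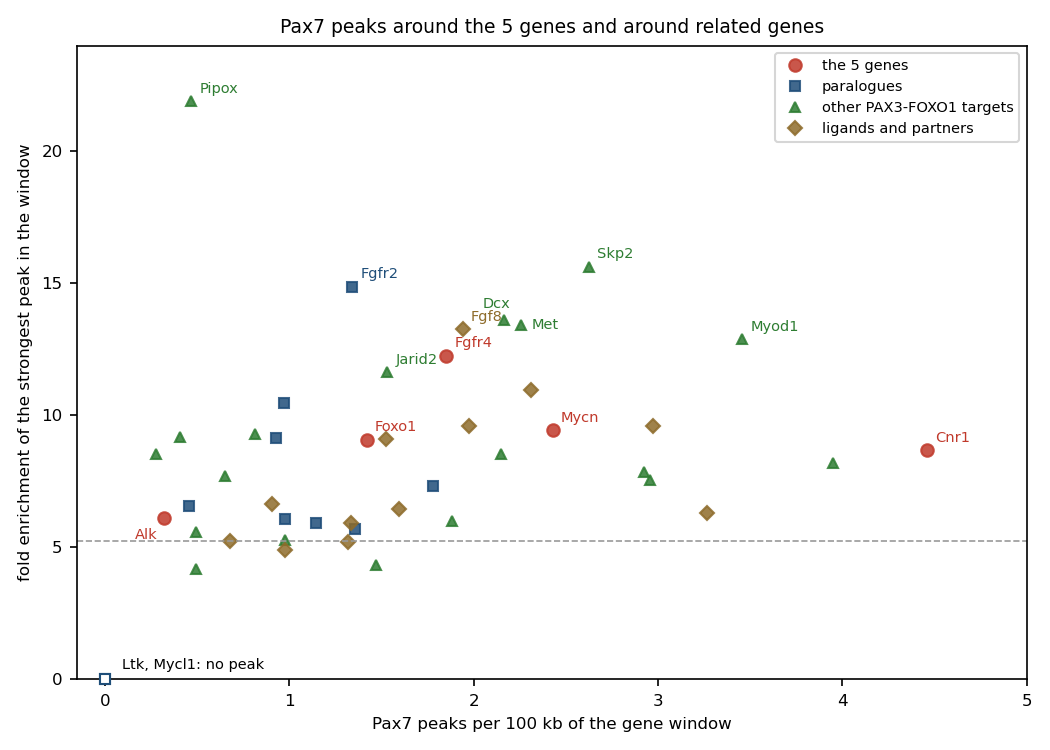
Each point is a gene, placed by its Pax7 peaks per 100 kb of window (horizontal axis) and by the fold enrichment of its strongest peak (vertical axis), with different symbols for the 5 genes, their paralogues, other targets of the fusion, and ligands and partners. The dashed line is the median fold enrichment of all peaks. Cnr1 has the highest density of all, Pipox the strongest peak, and Ltk and Mycl1 have no peak. Fgfr2 is drawn with its 3009 kb annotation.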

How the data were processed

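The deposited file is 1 list of Pax7 peaks. Reads were aligned by the authors to mm9 with bowtie2 (local mode), uniquely mapped reads were kept, duplicates were removed with Picard and MACS2 called the peaks on merged replicates against merged inputs, keeping a q-value of at most 0.01. The fold enrichment is the ratio that the authors' MACS2 run gave at each summit over local background. The deposited −log10 q-value is that of the summit, and the deposited score is 10 times it, cut to a whole number. The deposited −log10 p-value was not used.

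Peaks were placed on the NCBIM37 genome and its GENCODE annotation (1-based coordinates) with Python 3.11.15, pandas 2.3.3, numpy 2.4.6, pysam 0.24.0, scipy 1.17.1 and matplotlib 3.10.9. Counting and motif search were tested on simulated data. Classes were assigned in the order TSS within 1 kb, exon, intron, intergenic. Distances are from the 5′-most annotated TSS unless another is named. The members and lists were chosen with earlier results of these data known. By rule, every member peak was named, and related genes by their peak number and strongest peak. Alternatives were −log10 q or fold enrichment of at least 5, any overlap, merging within 500 bp, windows of 50 and 200 kb or around the TSS, other motif windows, each gene left out, and all annotated genes.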

Additional observations from a re-analysis of the deposited data

How the results depend on the processing

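No paired analysis was possible because the list was called on merged replicates, and for the same reason no replicate could be left out. Alternatives were set against the results in 54 pairings, of which 43 stayed within 1.5 times, or, for the share of genes with a peak, within its 95% Wilson interval, and 11 did not. Fold enrichment of at least 5 left 3 peaks at Mycn and 6 at Cnr1. Counting within 100 kb of the TSS left 0 peaks at Alk and 2 at Foxo1. The 200 kb windows, added after the data had been seen, gave 12 peaks at Mycn, 16 at Cnr1, 11 at Foxo1 and 47 in all. The share of genes with a peak, 75.2% of protein-coding genes, was 69.4% over all annotated genes, 62.1% with 50 kb and 61.3% with a fold enrichment of at least 5. The median fold enrichment stayed between 5.40 and 6.40.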
